A study of Mus musculus with 4 samples.

Results

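The genes of the cytosolic ribosomal proteins, the protein part of the machine that translates nuclear-encoded mRNAs, were measured in mouse T cells. They were chosen by symbol alone, as the genes named Rps or Rpl with a number or one of the special endings (Rpsa, Rplp0, Rplp1, Rplp2) and an optional ending in l, with the pseudogenes named -ps left out. The rule took 90 of the 50600 genes in the deposited tables, 54 of the large and 36 of the small ribosomal subunit. Of these, 77 are the standard genes of the ribosome, called core genes here, with 46 of the large and 31 of the small subunit. The other 13 are paralogues or copies of core genes, mostly named as the core gene with an added l or l and a number. The exceptions are Rps4l, paired here with Rps4x, and Rps3a2 and Rps3a3, paired with Rps3a1. By annotated biotype 84 of the 90 are protein-coding and 6 are processed pseudogenes, namely Rpl6l, Rps3a2, Rps3a3, Rpl32l, Rps4l and Rps12l1.

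The samples form 1 group of 4 biological replicates of primary T cells from C57BL/6NJ mice, with no genetic change and no treatment contrast in the labels, and age and sex were not given. The linked protocol describes CD4+ T cell differentiation, and the headers of the tables name the cells as Th0 that were activated for 48 h, where Th0 usually means activation without cytokines that polarise the cells. All 4 samples carry the same donor identifier, so a p-value here measures only the spread between these samples, which may be technical. The assay is labelled as total RNA-seq, but the protocol given for the libraries has polyadenylated RNA in its name. Total counts assigned to genes were 56904311, 45110199, 127755788 and 53379135 in replicates 1 to 4, so replicate 3 was the deepest, and the level that a count of 0 still allows was 0.0527, 0.0665, 0.0235 and 0.0562 in CPM, counts scaled to 1 common library total, in that order. All 11 T cell markers examined, among them Cd3e, Cd4, Trac and Lck, lay above 1 CPM (limma), with a summed level of 4087 to 4165 CPM. The 5 B cell markers summed to 1.72 to 3.21 CPM and the 5 myeloid markers to 2.26 to 3.15 CPM, with Lyz2 at 0. The 3 NK markers summed to 1.79 to 2.64 CPM and the 3 dendritic cell markers to 0.177 to 0.562 CPM. The 5 erythroid markers summed to at most 0.0527 CPM, both platelet markers were at 0 in every library, and the 4 fibroblast and epithelial markers summed to 1.71 to 2.55 CPM. Of all these other markers, Adgre1, Eomes and Epcam lay above 1 CPM (limma).

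Each ribosome carries 1 copy of nearly every ribosomal protein, built onto ribosomal RNA in the nucleolus, so the cell needs the proteins in closely matched amounts. Surplus free ribosomal proteins are degraded, and several of them, such as Rpl5 and Rpl11 with the 5S RNA, can bind Mdm2 and stabilise p53. Vertebrate ribosomal protein mRNAs typically start with a C followed by a run of pyrimidines, the 5′ terminal oligopyrimidine (TOP) element, through which mTOR and Larp1 control their translation. T cells enlarge and make many ribosomes when they are activated.

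The transcription starts of the core genes were searched for that element, because it is what their mRNAs are known to share. RefSeq start positions on GRCm38.p6 were at hand for 57 of the 77 core genes. The motif was a C at the annotated first base followed by at least 4 bases that are each C or T, read on the gene's own strand. It was present in 13 of 57 core genes (22.8%), against 813 of all 27025 genes with a RefSeq start (3.01%). Of other protein-coding genes at 1 CPM or more, 249 of 8576 (2.9%) had it. A gene with several annotated starts counted if any of them had the motif. When the run could begin up to 3 bases on either side of the annotated start, 23 core genes (40.4%) held it. The shares were 13.5% of all genes with a RefSeq start and 15% of the other protein-coding genes at 1 CPM or more. Among the paralogues 1 of 8 had it at the start and 3 of 8 within 3 bases. The windows below, of 30 bases with the annotated first transcribed base as the sixteenth, show 5 core genes with the motif at the start and 1 paralogue, Rps27l, whose run begins a base later, beside its partner Rps27. Capitals mark the C and the pyrimidines that follow it.
Rps6, minus strand of chr4:86857353-86857382: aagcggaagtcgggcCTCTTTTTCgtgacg
Rpl35, minus strand of chr2:39005117-39005146: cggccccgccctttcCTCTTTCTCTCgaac
Rpl38, plus strand of chr11:114668565-114668594: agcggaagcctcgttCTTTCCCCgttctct
Rps10, minus strand of chr17:27635230-27635259: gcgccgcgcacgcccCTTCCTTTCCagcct
Rps27l, plus strand of chr9:66946071-66946100: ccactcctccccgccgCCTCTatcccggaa
Rps27, minus strand of chr3:90213634-90213663: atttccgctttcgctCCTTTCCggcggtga
These sequences are RefSeq's, the match is a description of the letters, and a gene without it may be transcribed from another base than the annotated one.

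The ribosomal protein genes took up a large share of each library. Their share of all counts was 5.01%, 4.80%, 4.46% and 4.79% in replicates 1 to 4, a mean of 4.76% ± 0.23 (SD, n = 4). The lowest share was in replicate 3 and the highest in replicate 1. The 95% Wilson intervals ran from 5.004 to 5.015% in replicate 1 and from 4.453 to 4.460% in replicate 3 and cover counting error only, so the libraries differed by more than counting error. The core genes held 4.70% ± 0.23 and the 13 paralogues 0.060% ± 0.003, while all genes named as -ps pseudogenes of ribosomal proteins held 0.0183% ± 0.0018. Because these mRNAs are short, they held a larger share of TPM, which divides counts by gene length before scaling to the same total, at 10.5% ± 0.461. Of the 100 genes with the highest TPM, 32 were core genes.

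Expression of the core set was complete. All 77 core genes lay above 1 CPM (limma on log2(CPM + 0.1), largest Benjamini-Hochberg adjusted p = 2.81e-13), and 75 of them were above 100 CPM in every library. Counting the paralogues, 82 of the 90 genes lay above 1 CPM, against 47.4% of the 23365 genes with a count. Another 4 lay below 1 CPM, against 48.3% of those genes, 3 could not be placed on either side, and Rpl10l had no count. Fau and Rack1, ribosome components that the naming rule misses, were also expressed. Fau, whose product releases Rps30, had 1322, 1384, 1202 and 1394 TPM in replicates 1 to 4. Rack1, the scaffold protein on the head of the small subunit, had 1533, 1453, 1353 and 1399 TPM.

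Levels within the core set were far from equal. The mean TPM of a core gene had a median of 841, quartiles of 453 and 1519, and a range of 77.6 to 9803, which is 126-fold from the lowest to the highest. The 5 genes with the most counts held 26% of the core counts and the 10 with the most 40.5%. The order of the genes was set more finely than the replicates resolve: of 76 pairs of neighbours in that order, 67 had overlapping ranges over the 4 libraries.

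**Figure D1:**
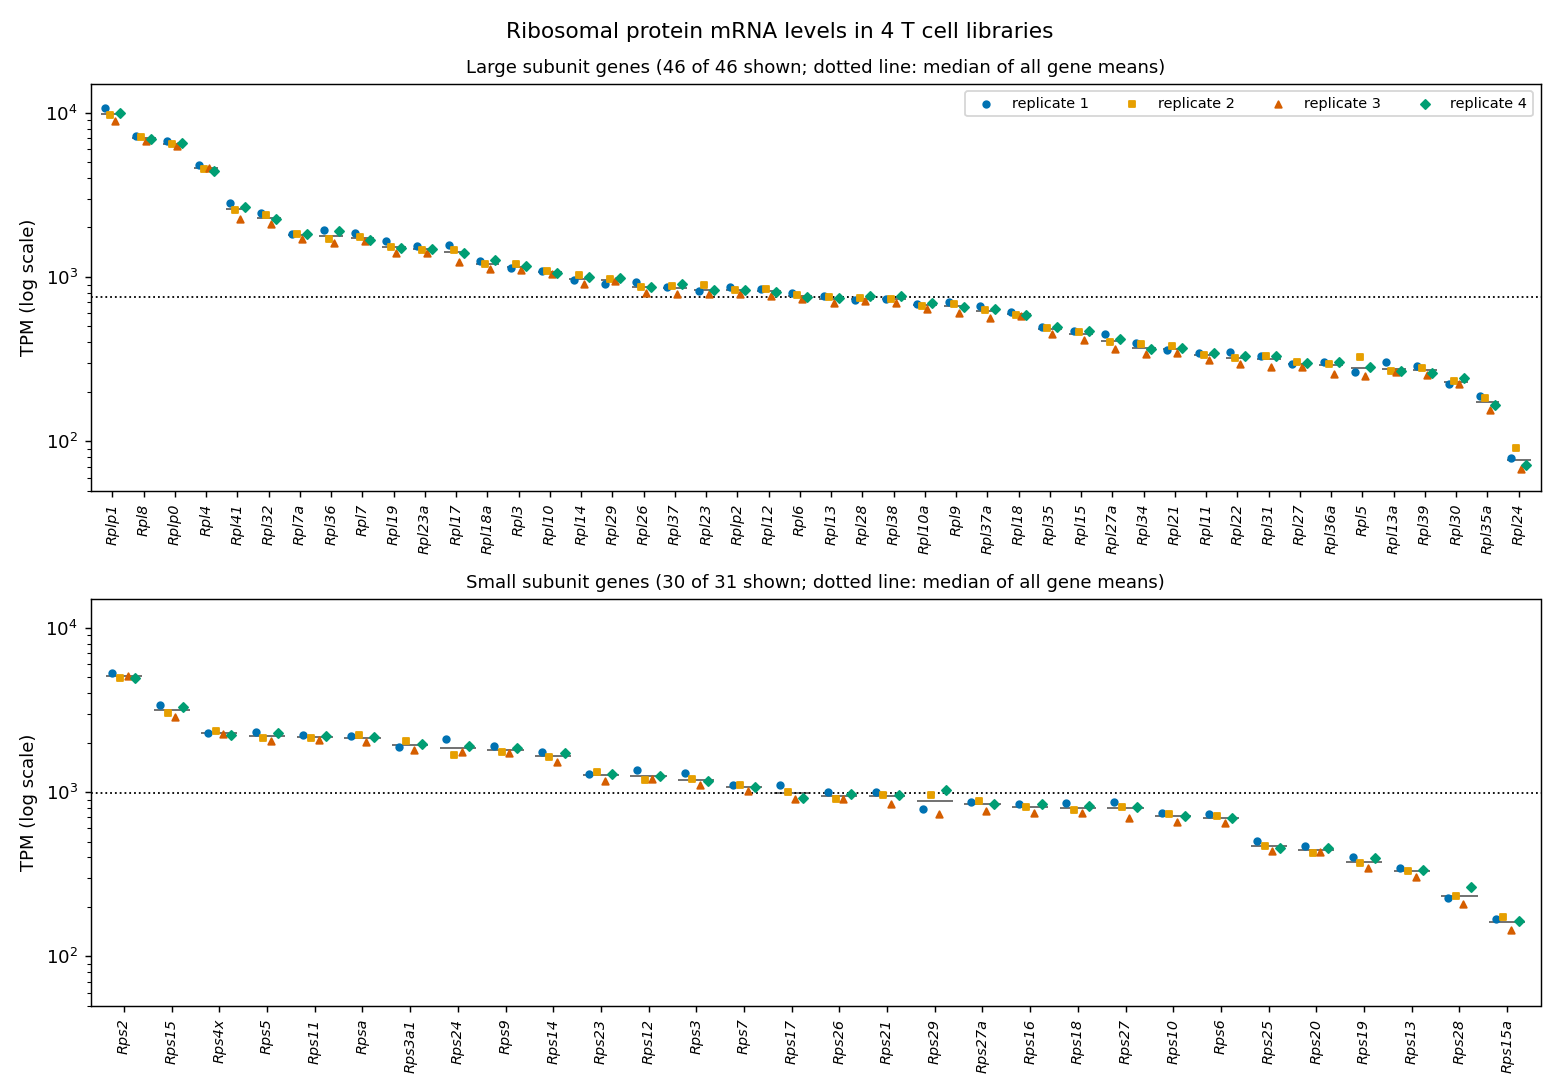
Level of the core genes in each of the 4 libraries, with 1 small subunit gene not shown, in TPM on a log axis, with large subunit genes above and small subunit genes below, ordered by mean. Points are libraries, short bars are gene means, and the dotted lines are the medians of the gene means; the 4 points of a gene lie close together compared with the distance from Rplp1 at 9803 TPM to Rpl24 at 77.6 TPM.

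The highest level belonged to a protein that is present in more than 1 copy per ribosome. Rplp1, an acidic protein of the stalk that recruits translation factors (chr9:61913284-61914542, minus strand, mm10), had 10611, 9674, 8939 and 9988 TPM in replicates 1 to 4. Rplp0, the base of the stalk (chr5:115559467-115563727, plus strand), had 6702, 6421, 6262 and 6495 TPM. Both were lowest in replicate 3, and their ranges did not overlap. Rplp2, the partner that pairs with Rplp1 in the stalk, lay near the median of the set with 873.5, 828.1, 784.7 and 830.7 TPM. Its counts relate to a summed exon length of 2072 bases, against 499 for Rplp1, and with the length of the main transcript alone Rplp2 averaged 1164 TPM and Rplp1 6400 TPM.

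The other genes among the 5 highest were Rpl8, Rps2 and Rpl4. Rpl8 and Rpl4, large subunit proteins with extensions that reach toward the peptidyl transferase centre and the exit tunnel, averaged 6986 ± 186 and 4585 ± 160 TPM (SD, n = 4). Rpl8 had 7162, 7099, 6746 and 6939 TPM, while Rpl4 had 4780, 4539, 4623 and 4398 TPM in replicates 1 to 4. Rpl4 was lowest in replicate 4, unlike most of the set. Rps2, which lines the entry of the mRNA channel on the small subunit, had 5319, 4904, 5114 and 4942 TPM. Rps3 and Rps9, which also belong to the entry channel region, averaged 1190 ± 80.3 and 1810 ± 83.1 TPM. Rps15 and Rps23, near the decoding site, averaged 3140 ± 242 and 1272 ± 66.2 TPM. Rpl3, a neighbour of the peptidyl transferase centre, averaged 1150 ± 41.2 TPM.

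Several of the proteins are known for roles beyond building the ribosome. Rpl5 and Rpl11, which sense ribosome stress together, averaged 280.1 ± 32.3 and 335.6 ± 15.6 TPM, below the lower quartile of the core genes. Mdm2, the p53 ligase that they bind, had 113.4, 108.2, 120.5 and 116.5 TPM. Rps6, whose phosphorylation by S6 kinase is the usual readout of mTOR activity in T cells, had 734.5, 713.9, 651.1 and 698.1 TPM. Rps27a, which is made as a fusion with ubiquitin, had 869.1, 879.7, 770.9 and 842.8 TPM. Rps19, the gene most often mutated in human Diamond-Blackfan anaemia, averaged 377.4 ± 26.6 TPM, and Rps26, Rps24 and Rpl35a, further genes of that disease, averaged 943.5 ± 43.7, 1855 ± 179 and 173.5 ± 15.3 TPM. Their order depended on the length used: by main transcript Rps19 averaged 1492, Rps26 1397, Rps24 630.6 and Rpl35a 813.4 TPM. Rpsa, which is also known as a laminin receptor, averaged 2144 ± 86.6 TPM.

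The lowest core gene was Rpl24, a large subunit protein at the bridge between the subunits (chr16:55966275-55971435, plus strand). It had 79.14, 91.38, 68.30 and 71.42 TPM, below every other core gene in every library, and 23.29 ± 3.20 CPM. The annotated gene Gm28037 (chr16:55966343-55980721) runs through it on the same strand and overlaps 47% of its exon bases and 71.5% of its main transcript. Gm28037 had 0 counts in all 4 libraries. The counting command in the file headers does not hold the option that counts read pairs overlapping more than 1 gene, so pairs from the shared exons would have gone to neither gene. Of the core genes, 2 share more than 20% of their exon bases with another gene on the same strand. The second is Rpl13a (35.4%), a large subunit protein that also takes part in translational control, whose overlapping genes were also at 0 and which averaged 275.8 ± 18.4 TPM. How much this sharing lowered the level of either gene was not tested.

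The other genes at the low end changed place with the definition of length. Rps15a, a small subunit protein, had 168.6, 172.8, 145.6 and 164.2 TPM and was second from the bottom under both definitions, but its main transcript is annotated with 5130 bases, the longest of the set. Rpl35a, Rpl30 and Rps28 followed with 173.5 ± 15.3, 231.1 ± 8.70 and 233.6 ± 24 TPM. With the length of the main transcript in place of the summed exons, Rpl35a averaged 813.4, Rpl30 799.7 and Rps28 584.6 TPM. The lowest 5 were then Rpl24, Rps15a, Rps20, Rpl5 and Rpl13a. Of these, Rps20 and Rpl5 have annotated main transcripts of 3706 and 2045 bases. Before division by length Rps20 averaged 528.7 CPM, against a median of 425 CPM for core genes. The summed exon length of a core gene was 2.15 times its main transcript at the median, since it adds retained introns and alternative exons. Under the main transcript length the median was 1263 TPM, the quartiles 802 and 1841, and the span 83.1-fold. Without Rpl24 the span was 60.2-fold by summed exon length and 49.3-fold by main transcript length. The ranks under the definitions correlated with Spearman's rho of 0.74 across the 77 genes, which share the same counts, and 8 genes were among the 10 highest under both.

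**Figure D2:**
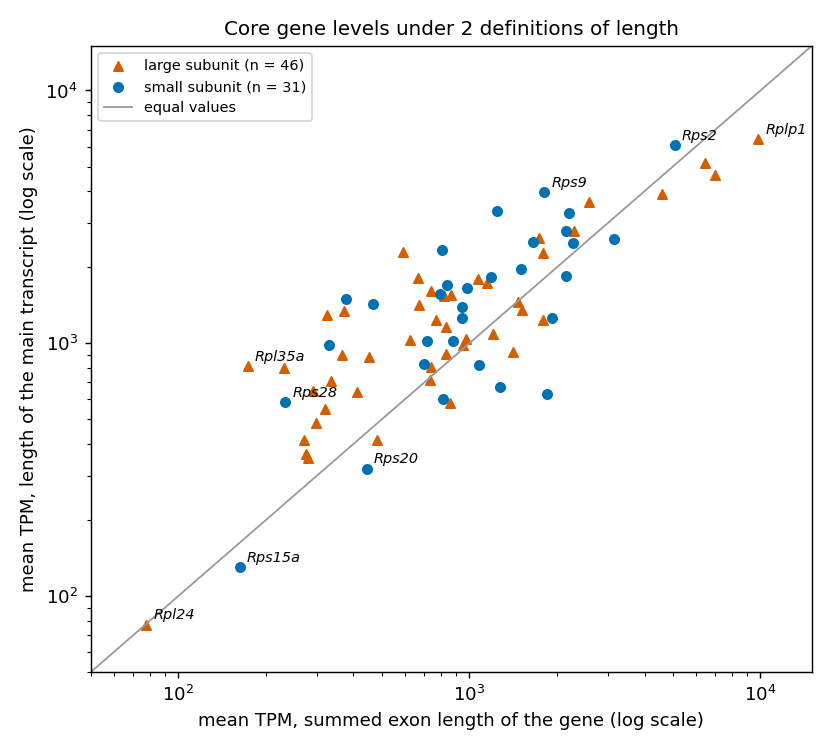
Mean TPM of each core gene from its summed exon length (horizontal, log axis) and from the length of its main transcript (vertical, log axis), large subunit genes as triangles and small subunit genes as circles, with the line of equal values. Rplp1 is highest and Rpl24 lowest under both, while Rpl35a has 173.5 TPM on the horizontal and 813.4 TPM on the vertical axis.

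By the median, large subunit genes lay lower than small subunit genes. Their median was 778, 770, 726 and 769 TPM in replicates 1 to 4, against 1101, 995, 911 and 1024 TPM for small subunit genes. The medians of the subunits did not overlap between libraries. The log2 difference, large minus small, was -0.50, -0.37, -0.33 and -0.41, a mean of -0.40 ± 0.07 (SD, n = 4 libraries), and with main transcript lengths it was -0.40 ± 0.04. The individual genes overlapped widely, from 77.6 to 9803 TPM in the large and from 163 to 5070 TPM in the small subunit. The highest core genes, Rplp1, Rpl8 and Rplp0, were of the large subunit, and the means of the subunits were not compared. Among the 16 core genes without a near-identical copy elsewhere in the annotation the difference was -0.12.

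Copies of these genes are common and bear on every count. A near-identical copy, with at least 95% identity over at least 50% of the main transcript, was annotated for 61 of the 77 core genes, and 276 -ps pseudogenes carry the names of 54 of them. At the median 56.6% of the 50-base windows of a core transcript occurred also in another gene, with a range of 0 to 98.6%. The counting command lacks the option for reads that map to several places, so such reads were not counted, and how far this lowered the genes with copies was not tested. Across the 77 genes, log2 TPM by main transcript length and the share of windows with a copy correlated with Pearson's r of -0.01, a description only, since the genes are not independent replicates.

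The paralogues ranged from close to the level of their partner to no count at all. Every one of the 13 was lower than its partner in 4 of 4 libraries, under both length definitions. Of the 13, 5 lay above 1 CPM (limma), namely Rps27l, Rpl7l1, Rpl36al, Rpl22l1 and Rpl6l, beside 47.4% of all genes tested. Against 1 TPM, a threshold that takes length into account, Rps4l, Rps3a2, Rps3a3, Rpl32l and Rpl39l also lay above (adjusted p = 0.00117, 5.58e-07, 2e-06, 0.000448 and 0.0101, limma). The share of all genes above 1 TPM is not given here. Across the 23365 genes with a count the median was 1.8 TPM and 0.902 CPM, so 1 TPM lay below the median gene and 1 CPM above it.

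**Figure D3:**
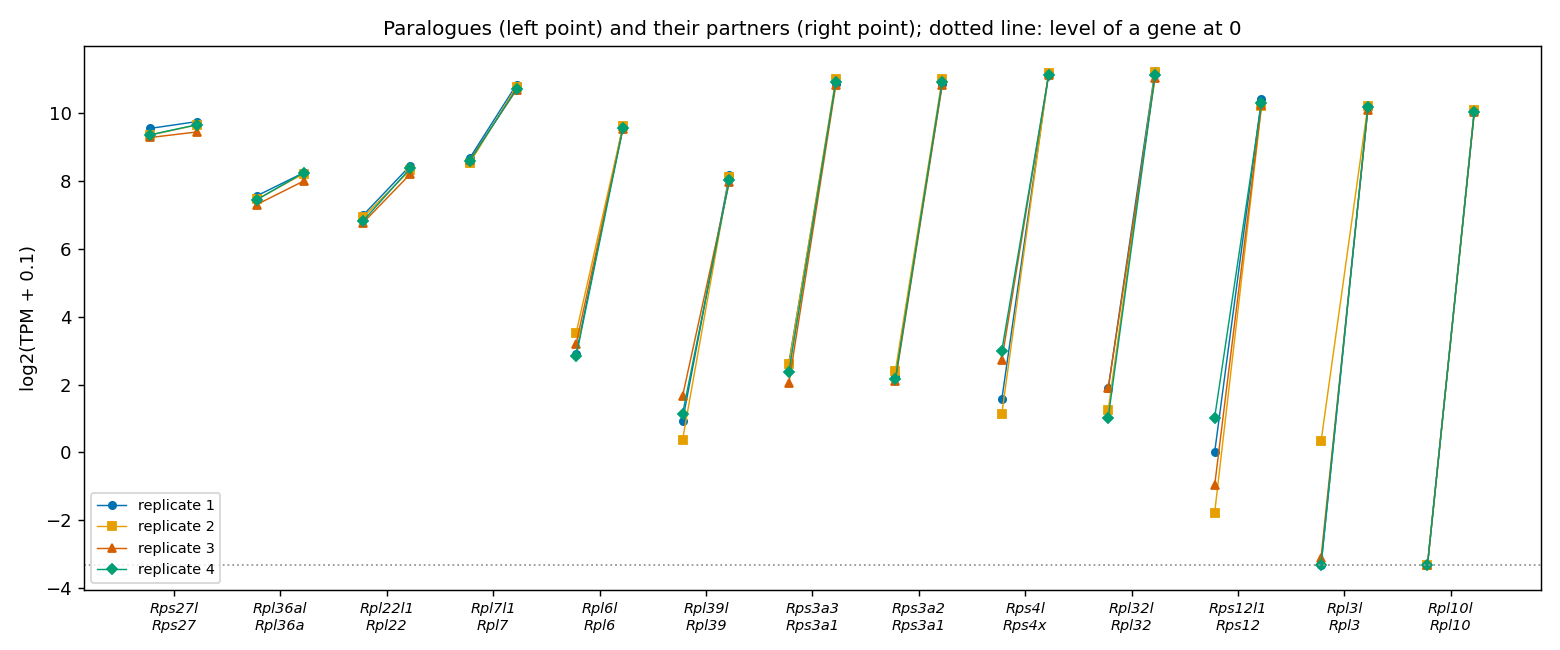
Level of each paralogue (left point) and its partner (right point) in each library, as log2(TPM + 0.1), joined by a line per library. The first 4 pairs have mean log2 ratios of -0.24 to -2.15 and the others of -6.47 or lower; the dotted line is the level of a gene at 0, where Rpl10l lies in every library.

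Rps27l came closest to its partner. It encodes a small subunit protein known as a p53 target and nearly identical to Rps27, and it had 751.1, 656.5, 623.6 and 658.9 TPM, against 863.9, 806.1, 698.7 and 810.9 TPM for Rps27. It therefore stood at 84.7% ± 4.01 of Rps27 (SD, n = 4), a log2 ratio of -0.24 ± 0.07. That ratio depended on the length used and was -1.13 ± 0.07 with main transcripts. Rps27l shares 22.4% of its 50-base windows with other genes, against 98.6% for Rps27, and the effect of this on the ratio was not tested.

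Rpl22 and Rpl22l1 are the pair best known in T cells, since loss of Rpl22 in mice blocks the development of αβ T cells and Rpl22 restrains Rpl22l1. Rpl22l1 (chr3:28805436-28807424, plus strand) had 127.7, 122.5, 109.5 and 113.8 TPM, against 349.3, 320.1, 294.1 and 331.0 TPM for Rpl22 (chr4:152325742-152334071, plus strand). Rpl22l1 was lower in each library, and its share of Rpl22 was 36.6% ± 1.64, a log2 ratio of -1.45 ± 0.07. With main transcript lengths the ratio was -2.22 ± 0.07. Both genes were lowest in replicate 3, so their ratio varied little.

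Rpl36al and Rpl7l1 were also well expressed. Rpl36al, which encodes a protein almost the same as that of the X-linked Rpl36a, had 189.3, 175.6, 158.4 and 174.7 TPM, against 303.2, 297.5, 255.9 and 303.5 TPM for Rpl36a. It stood at 60.2% ± 2.32 of Rpl36a, a log2 ratio of -0.73 ± 0.06, which was -1.15 ± 0.06 with main transcripts. Rpl7l1, a nucleolar relative of Rpl7 that acts in ribosome assembly, had 408.5, 369.2, 392.4 and 386.5 TPM, against 1839, 1757, 1653 and 1676 TPM for Rpl7. It stood at 22.5% ± 1.17 of Rpl7, with no overlap between the genes, a log2 ratio of -2.15 ± 0.08, which was -3.36 ± 0.08 with main transcripts.

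The paralogues known from muscle and testis were low. Rpl3l, the form of Rpl3 found in heart and skeletal muscle, had 0, 25, 1 and 0 counts in replicates 1 to 4, so 25 of its 26 counts came from 1 library. Rpl10l, a copy of Rpl10 used in male germ cells, had 0 counts in all 4 libraries and was at least 4899-fold lower than Rpl10 with a floor of 3 counts per library. Rpl39l, another form found in testis, had 25, 13, 93 and 27 counts and lay below 1 CPM (adjusted p = 0.00417, limma), though above 1 TPM. It stood at 0.765% ± 0.334 of Rpl39.

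The 6 annotated pseudogenes had mean log2 ratios to their partners between -10.72 and -6.47. Rpl6l was the highest, with 7.358, 11.32, 9.055 and 7.001 TPM, and lay above 1 CPM (adjusted p = 0.000113, limma). Rps3a2, Rps3a3 and Rps4l had 1.063 ± 0.105, 1.235 ± 0.237 and 1.327 ± 0.766 CPM and were not placed on either side of 1 CPM (adjusted p = 0.703, 0.206 and 0.53 for above, limma). Rpl32l and Rps12l1 lay below it (adjusted p = 0.000232 and 2.37e-06). Rps4l had 2.858, 2.091, 6.518 and 7.896 TPM, higher in replicates 3 and 4, and edgeR's goodness-of-fit test gave an adjusted p of 0.0764. For such copies, reads cannot be told apart from those of the parent wherever the sequences are the same: 100% of the 50-base windows of Rps12l1 and 90.2% of those of Rps3a2 occur in other genes.

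Between replicates the core genes spread more than other genes at 100 CPM or more, and they moved together. The SD of log2 CPM of a core gene was 0.095 at the median, against 0.049 for the other 2594 genes at 100 CPM or more. That comparison does not match transcript length. Other protein-coding genes tested with a main transcript under 1000 bases, at any level, had a median SD of 0.123. The 67 ribosomal protein genes of that length had 0.102, and no comparison matched both length and level. Between 1000 and 2000 bases the medians were 0.088 for others and 0.081 for ribosomal protein genes. At 2000 bases or more they were 0.073 and, for 4 genes, 0.096. The coefficient of variation of a core gene was 6.5% at the median, with a range of 2.51% to 15.7%. Of the 87 genes that passed the filter on low counts, 1 varied more than genes of like abundance (edgeR goodness-of-fit test, adjusted over all genes tested), against 0.422% of the 13279 genes tested. That gene was Rps29, a zinc-binding protein of the small subunit head (chr12:69157722-69159186, minus strand), with an adjusted p of 0.00246. It had 786.8, 954.4, 740.2 and 1024 TPM, higher in replicates 2 and 4 than in replicates 1 and 3. The call was lost when replicate 2, 3 or 4 was left out, and without replicate 1 the gene called was Rps28. With DESeq2's dispersion trend 5 genes were called (Rpl17, Rpl41, Rpl5, Rps24 and Rps29), against 0.429% of all genes.

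**Figure D4:**
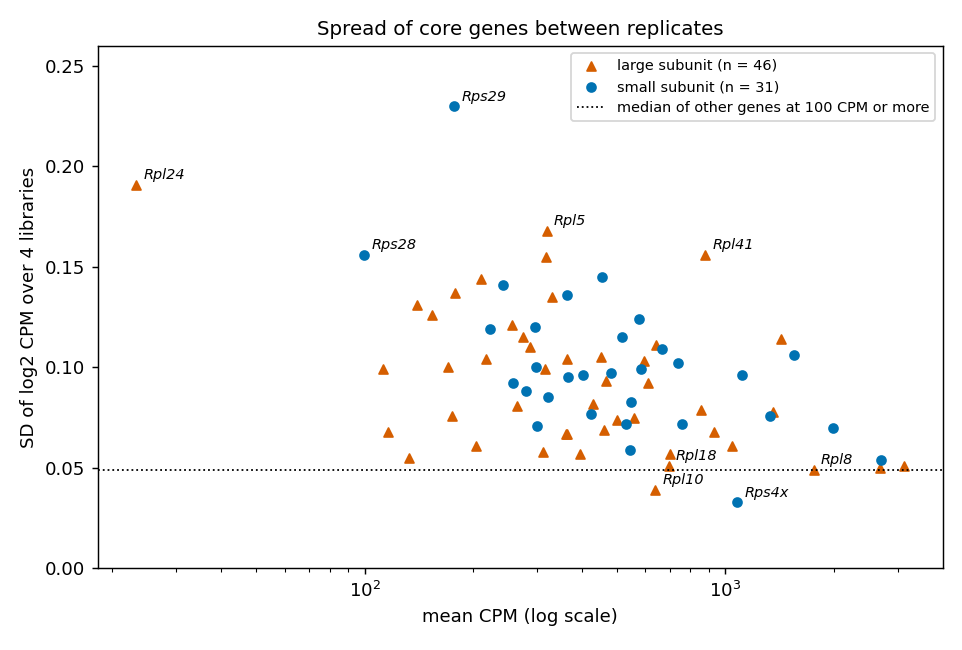
SD of log2 CPM over the 4 libraries against mean CPM (log axis) for the 46 large and 31 small subunit core genes. Rps29 has the highest SD at 0.23 and Rps4x the lowest at 0.033; the dotted line is the median of the other genes at 100 CPM or more, 0.049, and most core genes lie above it.

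After Rps29, the largest spread was in Rpl24 (SD of log2 CPM 0.191), Rpl5 (0.168), Rps28 (0.156) and Rpl41 (0.156). Rpl5 had 302.8, 371.3, 282.1 and 323.7 CPM and was highest in replicate 2. Rps28, a small protein at the mRNA exit, had 227.7, 233.8, 207.5 and 265.4 TPM and was highest in replicate 4. Rpl41, a peptide at the subunit interface and the shortest of the ribosomal proteins, had 2838, 2573, 2246 and 2683 TPM. The steadiest genes were Rps4x (0.033), Rpl10 (0.039), Rpl8 (0.049), Rpl4 (0.050) and Rpl18 (0.051). Rps4x, the X-linked small subunit gene, had 2274, 2338, 2258 and 2220 TPM, and Rpl10, which joins the large subunit late in its maturation, had 1083, 1090, 1042 and 1053 TPM. Rpl18, another large subunit protein, had 615.0, 585.5, 575.1 and 591.1 TPM.

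The shared movement was a lower level in replicate 3. Relative to each gene's own mean, the median deviation of the ribosomal protein genes was 0.075, 0.022, -0.117 and 0.028 on the log2 CPM scale in replicates 1 to 4, against 0.002, 0.000, 0.002 and 0.002 for all 13279 genes tested. Replicate 3 was the lowest library for 77 of the 87 genes (88.5%), against 21.7% of all genes tested. All 77 core genes lay below their own mean in replicate 3. Among genes with a main transcript under 1000 bases, it was lowest for 89.6% of ribosomal protein genes and 51.4% of other protein-coding genes. In replicate 1 the median was 0.080 for the 67 ribosomal protein genes with a main transcript under 1000 bases. It was 0.071 there for 685 other protein-coding genes of that length. The subunits moved alike: the median in replicate 3 was -0.113 for large subunit and -0.12 for small subunit core genes. Fau and Rack1 deviated by -0.157 and -0.100 in that library.

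Other short transcripts also read lower in replicate 3, with a smaller median shift. Among other protein-coding genes whose main transcript is under 1000 bases (n = 685), the median deviation there was -0.086, against -0.122 for the 67 ribosomal protein genes of that length. Between 1000 and 2000 bases the medians were -0.096 for 16 ribosomal protein genes and -0.032 for 2617 others. At 2000 bases or more they were -0.121 for 4 and 0.016 for 8212. Those 4 were Rps15a, Rpl5, Rps20 and Rpl7l1, at -0.175, -0.175, -0.067 and -0.005 in replicate 3. Their length is that of the annotated main transcript, and whether the cells used that transcript was not tested. Across the 77 core genes the deviation in replicate 3 correlated with log2 main transcript length at Pearson's r of 0.31, as a description. Replicate 3 was also the library with the most counts. The part of transcript length and of depth in the shift was not tested.

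**Figure D5:**
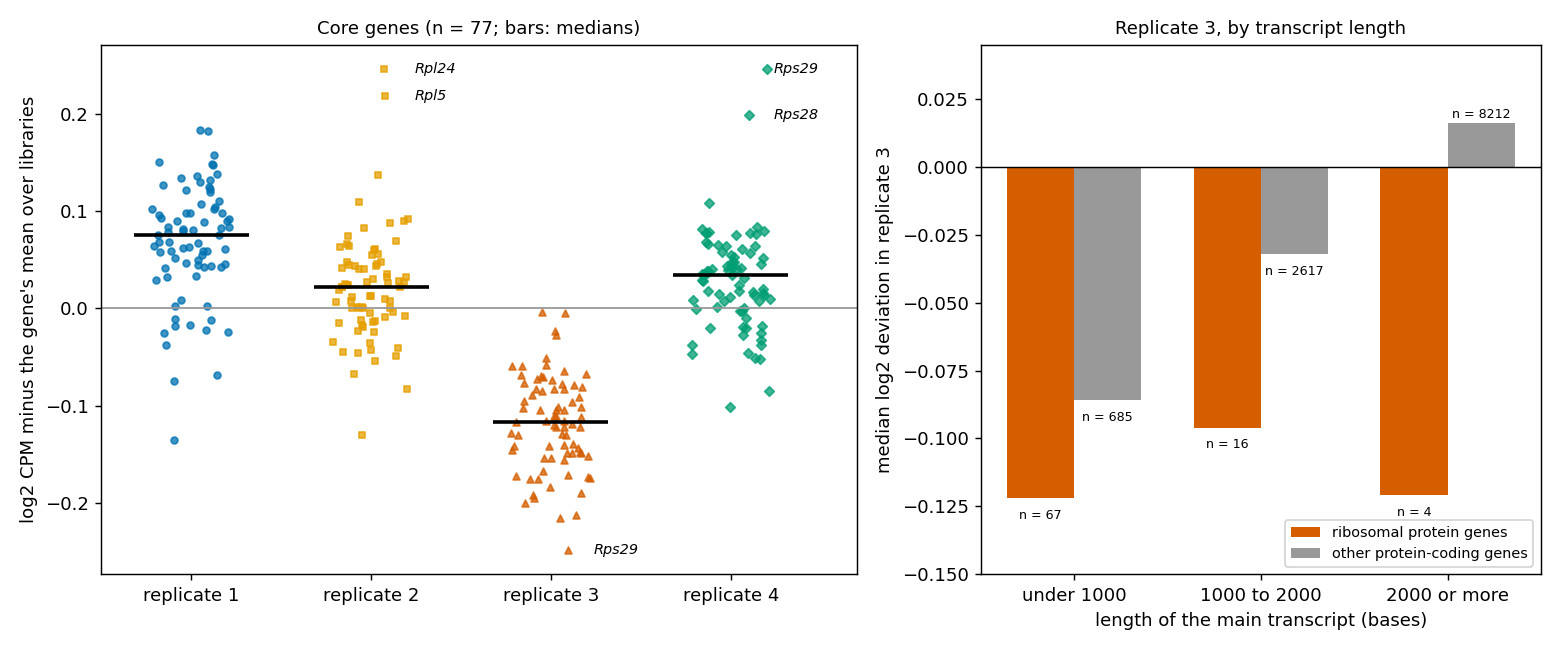
Left, log2 CPM of each of the 77 core genes minus its mean over the libraries, by replicate, with bars at the medians; right, the median deviation in replicate 3 of ribosomal protein genes (orange) and other protein-coding genes (grey) by length of the main transcript in bases. All core genes lie below 0 in replicate 3, and in each length class the orange bar lies lower than the grey one. The orange bar at 2000 bases or more rests on 4 genes, of which Rpl7l1 lay at -0.005.

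Genes that work with the ribosomal proteins were expressed in all libraries. All 16 mRNAs on a list of TOP mRNAs of other proteins lay above 1 CPM (limma), and they summed to 22220 to 22644 CPM. RefSeq starts were at hand for 10 of them, of which 2 had the motif at the start and 4 within 3 bases. Eef1a1, which delivers aminoacyl-tRNA, had 7276 ± 271 TPM, and Eef2, the elongation factor that moves the ribosome along the mRNA, had 6637 ± 199 TPM. In replicate 3 the median deviation of the 16 was -0.041, ranging from -0.109 in Naca to 0.075 in Eif3f. All 9 regulators of TOP mRNAs and of Rps6 lay above 1 CPM, with a median of 101 TPM and a median deviation of 0.040 in replicate 3. Larp1, which binds the TOP element, had 341.7 ± 15.8 TPM, Mtor 39.37 ± 1.5 TPM, and Myc, a driver of ribosome production in activated T cells, 660 ± 31.5 TPM. All 10 genes of dedicated chaperones and sensors of ribosomal proteins lay above 1 CPM, with a median of 132 TPM. Among them Grwd1 and Heatr3 had 267.7 ± 5.86 and 118.2 ± 5.03 TPM, and Pdcd2l, with Pdcd2 a chaperone of Rps2, had 53.78 ± 1.67 TPM.

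Ribosomal protein genes also carry small nucleolar RNAs (snoRNAs), guides for the modification of ribosomal RNA, within their introns. In the GENCODE M21 annotation 30 of the 77 core genes (39%) hold at least 1 snoRNA gene on the same strand, against 158 of 10677 other protein-coding genes at 1 CPM or more (1.48%). The core genes hold 58 snoRNA genes in all. Rpl4 holds 5 of them, the most in the set, and Rpl13a holds 4. The core genes lie on 19 chromosomes, with 14 on chromosome 7, 7 on chromosome 11 and 4 on the X chromosome.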

How the data were processed

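The 4 deposited tables hold whole-number counts of read pairs per gene, made by the authors with featureCounts 1.4.6-p4 over exons of GENCODE M13, with strand option 2 and both ends required to map, per the file headers. Per the labels, reads were placed on the mm10 assembly. The headers' command has neither the option for reads mapping to several places nor the one for reads overlapping several genes, and no aligner version is given in the sources used here. Symbols came from GENCODE M21, transcript starts from RefSeq. The ribosomal protein genes and the lists were chosen with earlier results of these data known.

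From the counts, CPM used each library's total (TMM factors 0.9957 to 1.002), and TPM used the summed exon length in the files. The main transcript was chosen in GENCODE M21 by APPRIS label, then support level, then shortest length; for 2 core genes it is longer than the summed exons, which come from the older release. Levels were tested against 1 CPM with limma 3.58.1 on log2(CPM + 0.1), one-sided each way, over 23365 genes with a count, and variation with edgeR 4.0.16 (goodness of fit at the trended dispersion) over 13279 genes passing filterByExpr, both with Benjamini-Hochberg adjusted p below 0.05. DESeq2 1.42.0 served as an alternative. Both tests were checked on simulated counts. Copies were sought with blastn 2.17.0+. Subunits, pairs and deviations were described without a test. Named in full were all paralogue pairs, the 5 highest and lowest core genes, the 5 most and least variable, and any called variable. No pair of libraries agreed within sampling noise (chi-square per degree of freedom 9.02 to 28.7). Results for some genes are not reported here.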

Additional observations from a re-analysis of the deposited data

Results flagged for a closer look

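Values standing apart from the other 3 libraries were looked for in 105 sets of 4 values, by Dixon's ratio of the gap to the range, which flags about 1 set in 20 by chance. Rpl31 had 160.4, 161.2, 134.9 and 160.3 CPM in replicates 1 to 4, and replicate 3 stood apart with a ratio of 0.968. Rpl36a had 147.2, 143.9, 121.9 and 146.6 CPM, with replicate 3 apart and a ratio of 0.868. Rpl7a had 960.7, 946.1, 866.7 and 948.4 CPM, again with replicate 3 apart and a ratio of 0.845. Rpl3l had 0, 0.554, 0.00783 and 0 CPM, and replicate 2 stood apart with a ratio of 0.986. The log2 ratio of Rpl3l over Rpl3 was -13.47, -9.89, -13.20 and -13.52, with replicate 2 apart and a ratio of 0.914.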

How the results depend on the processing

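The count of genes above 1 CPM, the share of counts, the pairs with a lower paralogue and the deviations by library stayed within their limits under the alternatives run. The 4 genes below 1 CPM became 2 with filterByExpr genes only, 1 with a threshold of 1 TPM and 8 with 10 CPM. Rpl32l and Rpl39l, below 1 CPM, lay above 1 TPM by 1.38 and 0.88 on the log2 scale, as the threshold then takes length into account. Against 10 CPM, Rpl6l, Rps4l, Rps3a3 and Rps3a2 had log2 levels of -2.16, -3, -2.94 and -3.12. The count of variable genes was 5 with DESeq2's dispersion trend; the cause was not tested. Large over small subunit was -0.12 on the log2 scale in the 16 core genes without a near-identical copy; the cause was not tested. Leaving out each replicate gave 0 to 1 variable genes (edgeR, none without replicate 2, 3 or 4), against 0.245% to 0.294% of all genes tested. It also gave 82 above and 4 below 1 CPM and a share of 4.68 to 4.87%. The difference of subunit medians was -0.43 to -0.37, and 13 pairs had a lower paralogue. No paired analysis was possible because the labels give 1 group. Main transcript lengths, and deviations of genes with main transcripts of at least 1000 bases (-0.096 in replicate 3), were alternatives chosen after seeing the data. Depth limits the nearly silent paralogues: Rpl3l and Rps12l1 had 26 and 25 counts in all.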
